A study of Mus musculus with 12 samples.

Results

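Tcra transcripts of wild-type thymocytes labelled 48 h before sampling were compared with those of the whole preselection pool. The comparison uses 4 of the 12 libraries of the series, 2 titled WT at steady state and 2 titled WT at 48 h, chosen by those titles. Each library is a table of the fraction of the repertoire held by every combination of a Trav (Vα) and a Traj (Jα) segment. All 4 came from mice aged 4 to 6 weeks that were homozygous WT and carried TcrdCreER. The strain is given as C57BL/6J with that allele, of 129 origin, in the Tcra-Tcrd loci. The Rosa26 reporter allele is written both as Rosa26ZsG/+ and as Rosa26ZsG/ZsG. TcrdCreER places a tamoxifen-dependent Cre under the control of Tcrd, the T cell receptor delta locus, which lies inside the Tcra locus. Tcrd is expressed before the double-positive (DP) stage, so a tamoxifen pulse marks precursors, and the ZsGreen reporter stays on in their progeny. Steady-state libraries held all CD3e(-) DP thymocytes of mice for which no tamoxifen is given. The 48 h libraries held the ZsGreen+ fraction of the same gate, 48 h after 1 mg tamoxifen. Tamoxifen, the ZsGreen gate and the time since labelling differ between the groups together and cannot be told apart. Groups of 2 mice are named in the series' design, without stating that each library is 1 mouse, so the p-values below measure the spread between libraries, which may be technical.

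In DP thymocytes the Tcra locus recombines several times on the same allele. The first joins use Trav segments near the Jα array (proximal) and Traj segments at its 5' end. Each later join deletes the earlier one and uses a Trav farther away (distal) and a Traj farther 3', until a receptor is selected or the cell dies. The Traj segments therefore record how far along the array a cell has travelled, and a cohort labelled at a known time can be set against a pool of all ages.

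On GRCm38 the annotation places the 43 Traj segments of the tables in the Tcra locus on chr14:54157280-54217901, over 60.6 kb on the plus strand, 2.62 kb upstream of the constant gene Trac. Numbers fall from Traj58 at the 5' end to Traj2 at the 3' end. The sequences below, from the GENCODE M21 transcripts, are of the 4 segments whose share fell, of the most used segment of the middle of the array, and of the first segment of the 5' end. Each is the whole J exon, 5' to 3', and the capitals mark the first match to TTNGG (N any base), which in these segments begins the Phe-Gly-X-Gly stretch common to J segments.
Traj58: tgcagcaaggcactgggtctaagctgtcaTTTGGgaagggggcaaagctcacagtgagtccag
Traj31: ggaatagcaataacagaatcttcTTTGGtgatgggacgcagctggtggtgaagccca
Traj6: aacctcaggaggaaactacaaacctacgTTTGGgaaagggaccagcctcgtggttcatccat
Traj5: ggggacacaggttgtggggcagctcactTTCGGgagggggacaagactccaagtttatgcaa
Traj4: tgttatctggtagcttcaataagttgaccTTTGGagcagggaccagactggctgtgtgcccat
Traj2: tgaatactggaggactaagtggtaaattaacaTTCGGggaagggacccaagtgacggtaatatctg
On the segments' own strand the motif was in 42 of the 43 tested Traj segments (97.7%, all but Traj33) and in 52 of the 60 Traj segments annotated in all (86.7%). On the other strand it was in 7 of the 60. Outside it the segments are distinct. The nearest other Traj shared a median of 70.2% of bases and at most 76.9% (Traj57 and Traj58), counted over the longer sequence of a global alignment. Trav segments are more alike: 20 of the 79 that matched the annotation by name had another at 95% identity or more, so shares of single Trav segments may depend on how the authors assigned such copies.

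The tables give no read counts, and depth is unknown. Each was scaled to 100% over the 81 Trav segments listed in all 4, which gives 3483 pairs. The 2 steady-state tables and replicate 1 at 48 h each summed to 0.998, had 1.23% to 1.58% of pairs at 0 and a smallest share of 0.000346% to 0.000414%. Replicate 2 at 48 h stood apart: its table summed to 1.99, 45.5% of its pairs were at 0, its smallest share was 0.0095%, and its 10 largest pairs held 8.37% of all transcripts (the other 3 tables, 1.74% to 1.78%). The 81 segments held 99.96% of the deposited total in replicate 1 of both groups, and 97.1% (steady state) and 98.6% (48 h) in replicate 2, whose tables list another set of rare Trav segments. Since that listing follows the replicate number in both groups, changes are also given within replicate numbers.

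Segments at the 3' end of the array were used less at 48 h. Of the 43 Traj segments, 4 fell (9.3%) and 0 rose (0.0%) at an adjusted p under 0.05, and the 4 were Traj6, Traj5, Traj4 and Traj2, the last 4 of the array in the tables. The test was limma on log2(percent + 0.01) with Benjamini-Hochberg adjustment, fitted to all 12 libraries with 1 mean per group.

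Traj2 (chr14:54217836-54217901), the last segment in the tables, held 2.14% and 2.35% of the steady-state libraries and 1.15% and 0.910% of the 48 h libraries. Both 48 h libraries were below both steady-state libraries, with no overlap. Its log2 fold change was -1.13 (SE 0.18, adjusted p = 0.00450, limma), or -0.89 within replicate 1 and -1.36 within replicate 2. Traj4 (chr14:54216291-54216353) held 2.55% and 3.10% at steady state and 1.62% and 1.24% at 48 h. It showed the same separation, with a log2 change of -0.98 (SE 0.22, limma adjusted p = 0.0221). Traj5 (chr14:54213777-54213838) held 1.16% and 1.35% at steady state against 0.790% and 0.546% at 48 h, a log2 change of -0.92 (SE 0.23, limma adjusted p = 0.0296). Traj6 (chr14:54212688-54212749) held 2.28% and 2.51% against 1.59% and 1.27%, a log2 change of -0.74 (SE 0.17, limma adjusted p = 0.0221). For each of the 4, the lowest library was replicate 2 at 48 h and the highest replicate 2 at steady state. At 48 h Traj2 held 45.8% of its steady-state mean and Traj6 59.8%.

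The calls depend on single libraries. Without replicate 2 at 48 h, or without replicate 2 at steady state, 0 Traj segments passed, and without replicate 1 at steady state 1 passed, Traj2. The 4 fold changes kept their sign: without replicate 2 at 48 h they were -0.96 for Traj2, -0.79 for Traj4, -0.66 for Traj5 and -0.58 for Traj6. Restricting the fit to the 8 libraries whose tables sum to near 1 also leaves replicate 1 as the one 48 h library of WT mice. It gave the same fold changes (-0.96 for Traj2). Every labelled group then holds 1 library, so the spread in that fit comes from the steady-state groups alone, and its p-values are not given. With the replicate number as a block in the 4 compared libraries alone, a fit added after seeing the data, 0 passed (adjusted p = 0.320 for Traj2, limma), and with the block in the fit of all 12 libraries the same 4 passed.

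**Figure D1:**
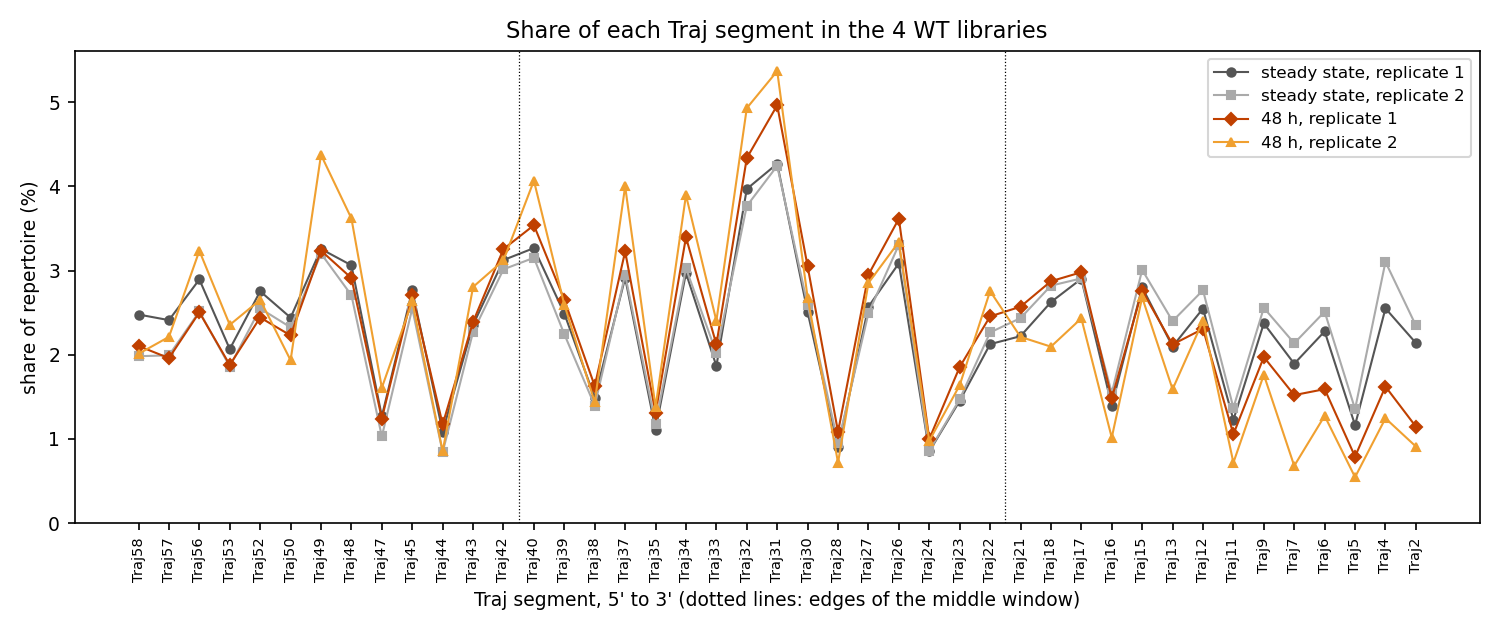
Share of the repertoire (%, vertical axis) of each of the 43 Traj segments in order from 5' to 3' (horizontal axis), 1 line per WT library; dotted lines bound the middle window. Both 48 h lines run below both steady-state lines from Traj11 to Traj2, and above them at Traj31 and Traj32.

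The segments next to those called were lower as well. All 7 segments from Traj11 to Traj2 were lower in both 48 h libraries than in both steady-state libraries, against 10 of all 43 Traj segments (23.3%). Traj7 held 1.89% and 2.14% at steady state but 1.52% and 0.680% at 48 h, and its log2 fold change of -0.98 missed the threshold (SE 0.44, adjusted p = 0.261, limma), the 48 h libraries being far from each other. Traj11 held 1.23% and 1.37% against 1.06% and 0.718%, and Traj9 2.37% and 2.56% against 1.97% and 1.76%. Their log2 fold changes were -0.57 (SE 0.21) and -0.40 (SE 0.15), both with an adjusted p of 0.171 in limma. The median log2 fold change of the 7 segments was -0.92, against 0.06 over all 43. Within replicate 1 the median was -0.51 and within replicate 2 -1.30.

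The neighbouring stretch from Traj21 to Traj12 showed no such separation. Its summed share was 16.6% and 17.9% at steady state and 17.1% and 14.4% at 48 h. None of its 7 segments passed the test. Traj18 and Traj17 were at 2.87% and 2.98% in replicate 1 at 48 h but at 2.10% and 2.43% in replicate 2, on either side of the steady-state libraries. Traj15 and Traj12 were lower at 48 h without overlap, with log2 fold changes of -0.09 and -0.17.

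**Figure D2:**
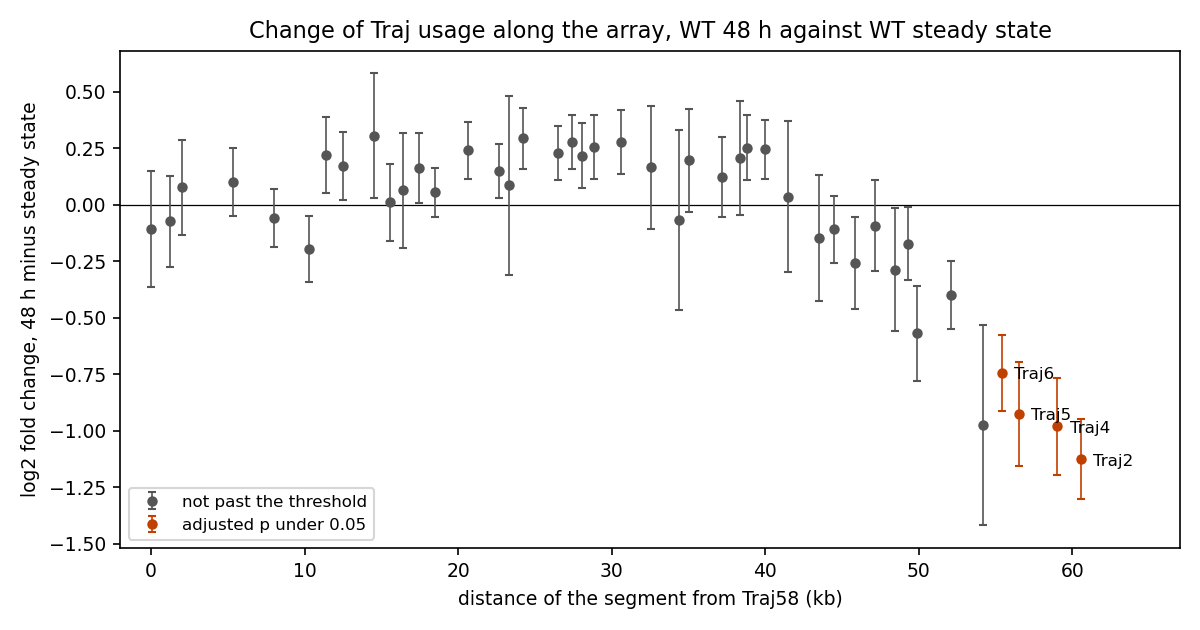
Log2 fold change of each Traj segment, 48 h minus steady state (vertical axis, bars are the standard error of the limma fit), against its distance from Traj58 in kb (horizontal axis). Values lie around 0 or above it over the first 40 kb and fall to -1.13 at Traj2; the 4 segments past the threshold are the last 4.

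The middle of the array held more of the repertoire at 48 h. The 16 segments from Traj40 to Traj22 summed to 37.8% and 37.9% at steady state and to 43.2% and 45.03% at 48 h. The means were 37.9% ± 0.0504 and 44.1% ± 1.32 (SD, n = 2 each), and the difference was 5.34 points within replicate 1 and 7.13 within replicate 2. Over the Trav segments without the suffix d the difference of the means was 3.83 points in place of 6.23. With 2 libraries against 2 an exact permutation test, two-sided, cannot go below p = 0.33, so no test was made on these sums. Of the 16 segments 14 were higher in both 48 h libraries than in both steady-state libraries, against 15 of all 43 Traj segments (34.9%), the other one being Traj43. None of the 16 passed the limma test.

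The most used segments of the locus lie here. Traj31 held 4.27% and 4.24% at steady state and 4.96% and 5.37% at 48 h, and Traj32 3.97% and 3.77% against 4.34% and 4.93%. They were the 2 highest Traj segments in all 4 libraries. The largest log2 fold change of the window was at Traj37, with 2.91% and 2.95% at steady state and 3.23% and 4.00% at 48 h (log2 fold change 0.29, SE 0.13, adjusted p = 0.261, limma). Traj31 (0.28, SE 0.14) came next, and then Traj34, with 2.97% and 3.03% against 3.40% and 3.89% (0.28, SE 0.12, adjusted p = 0.261, limma). Toward the 3' edge, Traj23 held 1.45% and 1.47% against 1.85% and 1.64%, and Traj22 2.13% and 2.26% against 2.45% and 2.76%, neither passing the test. Traj33, the segment of the MAIT cell receptor, held 1.87% and 2.02% against 2.12% and 2.40%, a log2 fold change of 0.22 that did not pass. Traj38 and Traj28 were the 2 exceptions whose libraries overlapped. The median log2 fold change of the window was 0.22, with 0.20 within replicate 1 and 0.22 within replicate 2.

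The 5' end gave no ordered difference. Traj58 to Traj42, 13 segments, held 32.0% and 28.8% at steady state and 30.04% and 33.4% at 48 h, so the groups overlapped. Traj58, the first segment of the tables downstream of the TEA promoter, held 2.48% and 1.98% against 2.10% and 2.01%. Traj57 held 2.41% and 1.99% against 1.96% and 2.21%, and Traj56 2.89% and 2.51% against 2.50% and 3.23%. Traj52 held 2.75% and 2.55% against 2.44% and 2.65%. For these 4 segments the steady-state libraries were as far apart as the groups. Traj49, next to a second promoter of the array, held 3.26% and 3.20% at steady state, 3.24% in replicate 1 at 48 h and 4.37% in replicate 2. Its log2 fold change of 0.22 (SE 0.17) came from that 1 library, being -0.01 within replicate 1.

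The position at which the summed share reached 75%, counted from Traj58, was Traj17 and Traj16 at steady state and Traj21 and Traj23 at 48 h. The position of 25% was Traj45 and Traj43 at steady state, and the same 2 segments at 48 h. The mean Traj number, weighted by share, was 31.4 and 30.1 at steady state and 31.9 and 33.7 at 48 h, a difference of the means of 2.05 that was 0.47 within replicate 1 and 3.63 within replicate 2. The 3' window as a whole (Traj21 to Traj2, 14 segments) held 30.2% and 33.3% at steady state against 26.8% and 21.6%. The difference of the means was -7.56 points. The stretch Traj11 to Traj2, with 13.6% and 15.4% against 9.70% and 7.13%, made up -6.09 points of it. Over the Trav segments without the suffix d the difference for Traj11 to Traj2 was -3.52 points.

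At 24 h after labelling, the WT libraries were at the other extreme. There the 5' window held 57.6% and 63.2%, the middle window 35.7% and 31.8%, and Traj11 to Traj2 held 1.82% and 1.72%. Traj2 was at 0.194% and 0.211%. For the 5' window the 48 h libraries lay within the range of the steady-state libraries or just above it, whereas for Traj11 to Traj2 they lay between the 24 h and the steady-state libraries. For the middle window the 48 h libraries were above both other samplings. The Bray-Curtis distance between Traj profiles, the share of the repertoire that would have to move from one profile to the other, was 3.88% between the steady-state libraries. It was 6.38% and 6.98% from them to replicate 1 at 48 h, 10.5% and 12.3% to replicate 2, and 29.8% to 38.1% to the 24 h libraries.

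The lower use of Traj11 to Traj2 was largest in transcripts with Trav segments far from the array. The 81 Trav segments were divided by their order along the chromosome into distal, central and proximal zones of 27. Traj use was taken as a share of each zone, so that the size of a zone does not enter, but its mix of Trav segments does. In replicate 2 at 48 h, Trav15-2-dv6-2 held 18.6% of the repertoire, out of 49.2% for the proximal zone, and 7.46% of its transcripts used Traj11 to Traj2. Trav15d-2-dv6d-2 held 7.69% there, out of 31.04% for the central zone, and 13.3% of its transcripts did so. Their part in the zone values of that library was not tested. Of distal-zone transcripts 20.0% and 22.6% used Traj11 to Traj2 at steady state and 11.97% and 7.03% at 48 h. Of central-zone transcripts 15.7% and 17.4% did so at steady state and 11.3% and 8.64% at 48 h. Of proximal-zone transcripts 6.93% and 6.61% did so at steady state and 6.45% and 6.22% at 48 h. The groups did not overlap in any zone. The difference of the means was -11.8 points in the distal, -6.58 in the central and -0.43 in the proximal zone. The gap between distal and proximal zones was 13.0 and 16.0 points at steady state against 5.52 and 0.81 at 48 h. It was 0.07 and 0.63 at 24 h. The gaps were not tested, since 2 libraries against 2 cannot go below p = 0.33 in an exact permutation test.

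**Figure D3:**
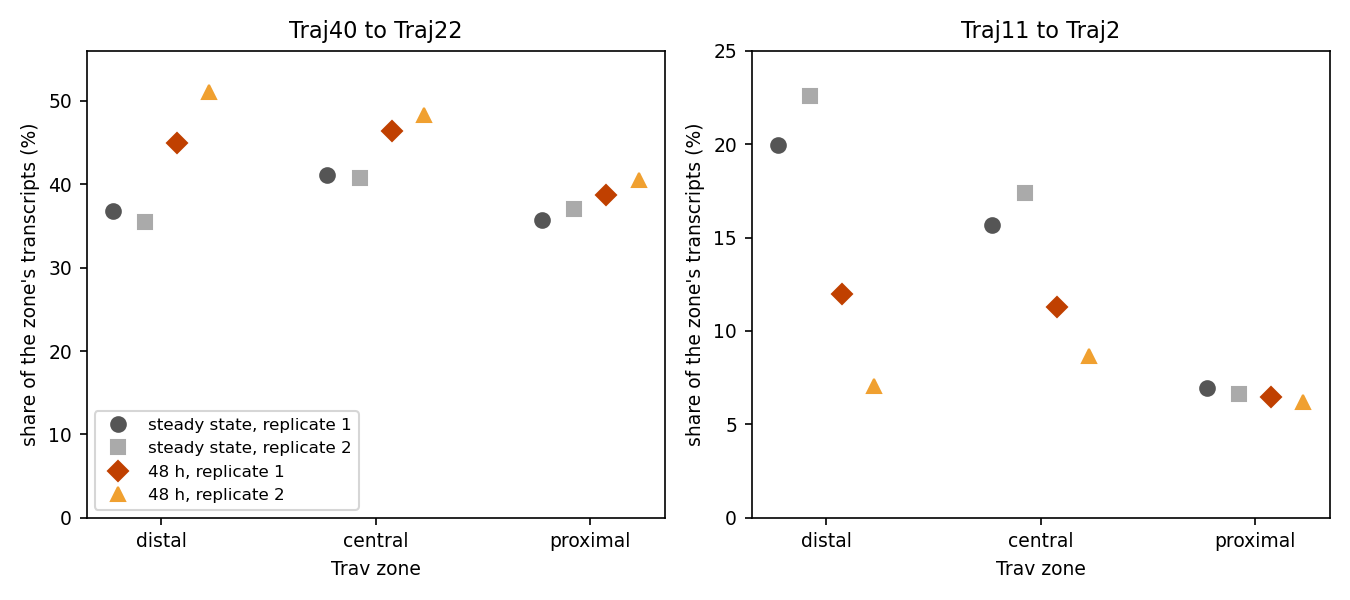
Share of each Trav zone's transcripts (%, vertical axis) that used Traj40 to Traj22 (left) or Traj11 to Traj2 (right), for the distal, central and proximal zone (horizontal axis), 1 symbol per WT library. In the distal zone the 48 h libraries are at 11.97% and 7.03% for Traj11 to Traj2, below 20.0% and 22.6% at steady state; in the proximal zone all 4 lie between 6.22% and 6.93%.

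The middle window mirrored this order. It held 36.7% and 35.5% of the distal zone at steady state and 44.9% and 51.1% at 48 h. In the central zone it held 41.1% and 40.8% against 46.4% and 48.3%, and in the proximal zone 35.7% and 37.0% against 38.7% and 40.5%. All 3 zones were higher at 48 h without overlap. In the proximal zone the lower shares were mainly at the 5' side. Its 5' window held 48.3% and 47.9% at steady state but 44.998% and 44.8% at 48 h. Traj58 to Traj53 alone held 17.2% and 16.2% of it against 14.9% and 14.02%. The difference of the means was -3.21 points for the 5' window and -0.43 for Traj11 to Traj2, which was also lower without overlap. The 3' window of the proximal zone as a whole held 15.9% and 15.1% against 16.3% and 14.6%, with overlap.

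Taken over all transcripts of a zone, the mean Traj number differed in opposite directions by zone. In the distal zone it was 26.3 and 24.7 at steady state and 28.5 and 30.1 at 48 h, a more 5' position at 48 h. In the central zone it was 28.5 and 27.3 against 29.1 and 30.2. In the proximal zone it was 37.9 in both steady-state libraries and 37.1 and 37.3 at 48 h, a more 3' position at 48 h. The value of replicate 2 at 48 h is weighted toward Trav15-2-dv6-2, with 18.6% of the repertoire, out of 49.2% for the zone. The mean Traj number of that segment was 36.2 there, and 36.0 and 36.4 at steady state. Of the 27 proximal segments, 17 were below and 4 above both steady-state libraries in replicate 1 at 48 h. In replicate 2 at 48 h, 13 were below and 10 above. The distance between the distal and proximal means was 11.6 and 13.2 Traj numbers in the steady-state libraries, 8.62 and 7.20 at 48 h, and 1.10 and 0.48 in the 24 h libraries.

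The same direction is seen from the Traj side, where a mean Trav rank (1 the most distal, 81 the most proximal) also moves with overall Trav usage. Over all transcripts the mean rank was 43.1 and 41.5 at steady state and 43.3 and 47.9 at 48 h. Transcripts with Traj11 to Traj2 had a mean rank of 34.1 and 32.2 at steady state and 38.01 and 44.98 at 48 h. Those with Traj58 to Traj53 had mean ranks of 56.6 and 56.7 against 56.6 and 57.7. Combinations of distal Trav with the 3' window were 1.42 times as frequent as the product of their margins in both steady-state libraries, and 1.28 and 1.27 times at 48 h. Over transcripts, the correlation of Trav rank with Traj number was 0.330 and 0.361 in the steady-state libraries. It was 0.272 and 0.260 at 48 h, and at 24 h 0.116 and 0.0892. It is given as a description: the points are transcripts of 1 library each, not replicates.

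Single Trav segments showed the same order. Within a Trav, the share of Traj11 to Traj2 was lower in both 48 h libraries than in both steady-state libraries for 59 of 81 segments (72.8%) and higher for 2 (2.47%). By zone these 59 were 27 of 27 distal, 24 of 27 central and 8 of 27 proximal segments. In replicate 1 at 48 h alone, 27 distal, 26 central and 15 proximal segments were below both steady-state libraries, and in replicate 2 these counts were 27, 25 and 17. The share of the middle window was higher without overlap for 56 of 81 (69.1%), 23 distal, 22 central and 11 proximal, and lower for 0 (0.0%). The mean Traj number was higher without overlap for 40 of 81 (49.4%), none of them proximal, and lower for 7 (8.64%), all of them proximal.

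The Trav segments named here, apart from Trav1, Trav7-3, Trav14-1 and Trav21-dv12, were chosen after their values were seen, to show the range. Trav1, the most distal segment, used Traj11 to Traj2 in 12.3% and 12.1% of its transcripts at steady state and in 6.04% and 5.57% at 48 h. Trav3-1 did so in 23.0% and 24.6% against 11.8% and 7.43%, and Trav12d-3, at the distal edge of the central zone, in 25.2% and 33.0% against 15.7% and 4.96%. In all 3 the 48 h libraries were far below. Trav7-3, the most used segment of the steady-state pool, was at 15.8% and 17.2% against 11.5% and 3.75%. Trav14-1, in the proximal zone, was at 9.23% and 9.99% against 8.88% and 9.35%, with overlap. Trav21-dv12, the segment nearest the Jα array, was at 2.65% and 2.60% against 2.73% and 2.38%, also with overlap. For Trav2 the shares were 17.2% and 19.05% against 7.70% and 0%, where 0% means only that replicate 2 at 48 h lists none of its pairs with Traj11 to Traj2 above 0.

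**Figure D4:**
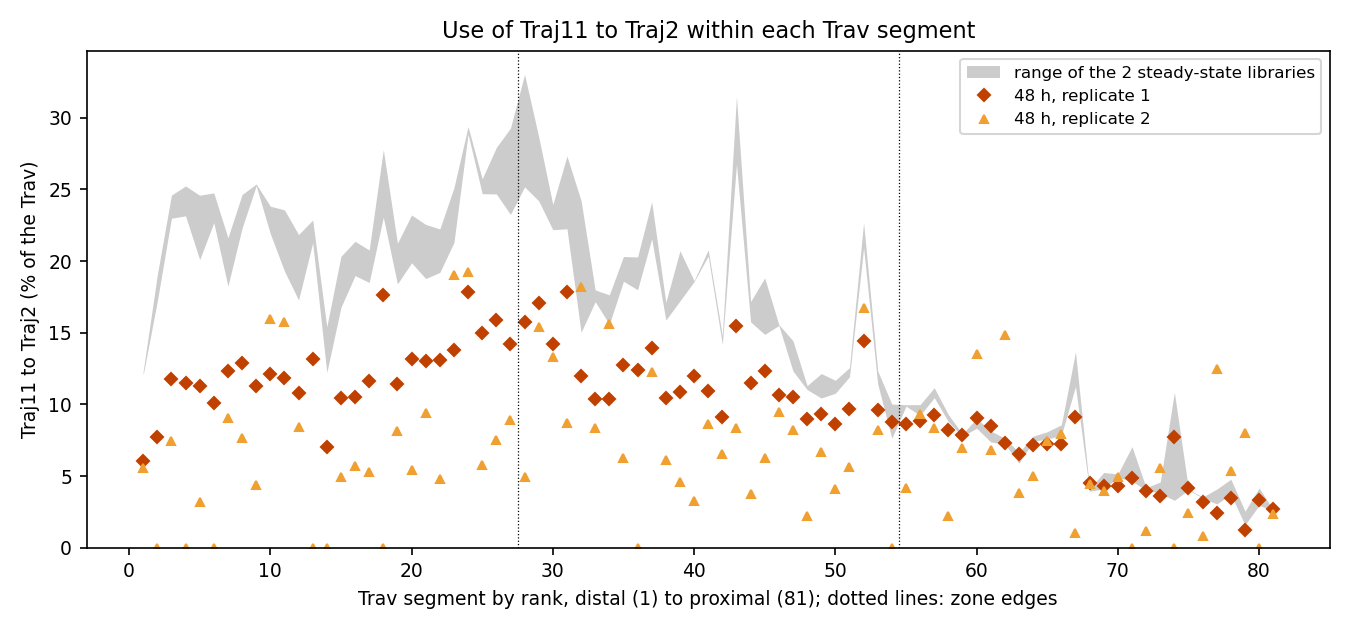
Share of each Trav segment's transcripts that used Traj11 to Traj2 (%, vertical axis) by rank of the Trav along the chromosome (horizontal axis, 1 distal to 81 proximal). The grey band is the range of the 2 steady-state libraries and symbols are the 48 h libraries; all 27 distal segments have both symbols below the band, 8 of the 27 proximal segments do.

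For Trav usage itself the test found no difference. None of the 81 Trav segments passed the limma test in either direction (0.0% each), 0 had an unadjusted p under 0.05, and the lowest adjusted p was 0.790. Of the 81, 5 were higher without overlap (6.17%) and 13 lower (16.0%). Replicate 1 at 48 h was as near to the steady-state libraries (Bray-Curtis distance 3.68% and 5.87% between Trav profiles) as these were to each other (5.89%). Replicate 2 was 38.6% and 38.4% away from them and 38.9% away from replicate 1.

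Its largest departures were at Trav15-2-dv6-2 and Trav15d-2-dv6d-2, of the Trav15 family. Trav15-2-dv6-2 held 0.582% and 0.615% at steady state, 0.557% in replicate 1 at 48 h and 18.6% in replicate 2. Its copy in the duplicated part of the locus, Trav15d-2-dv6d-2, with 91.5% identical bases, held 0.335%, 0.393%, 0.341% and 7.69% in the same order. Trav6-3, rare at 0.0821% and 0.104%, was at 0.0805% and 0.344%. These were the 3 largest positive log2 fold changes (2.42, 2.14 and 0.80), none past the threshold, and in each replicate 1 at 48 h was slightly below the steady-state mean. The largest negative log2 fold changes were at Trav14d-2 (0.959%, 0.901%, 0.876% and 0.125%), Trav6-6 (2.66%, 2.65%, 3.05% and 0.345%) and Trav1 (1.76%, 2.23%, 1.30% and 0.517%). Of these Trav1, with a log2 change of -1.26 (SE 0.64, limma adjusted p = 0.790), was at -0.60 in replicate 1 against the mean of the steady-state libraries, where Trav14d-2 was at -0.08 and Trav6-6 at 0.20.

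**Figure D5:**
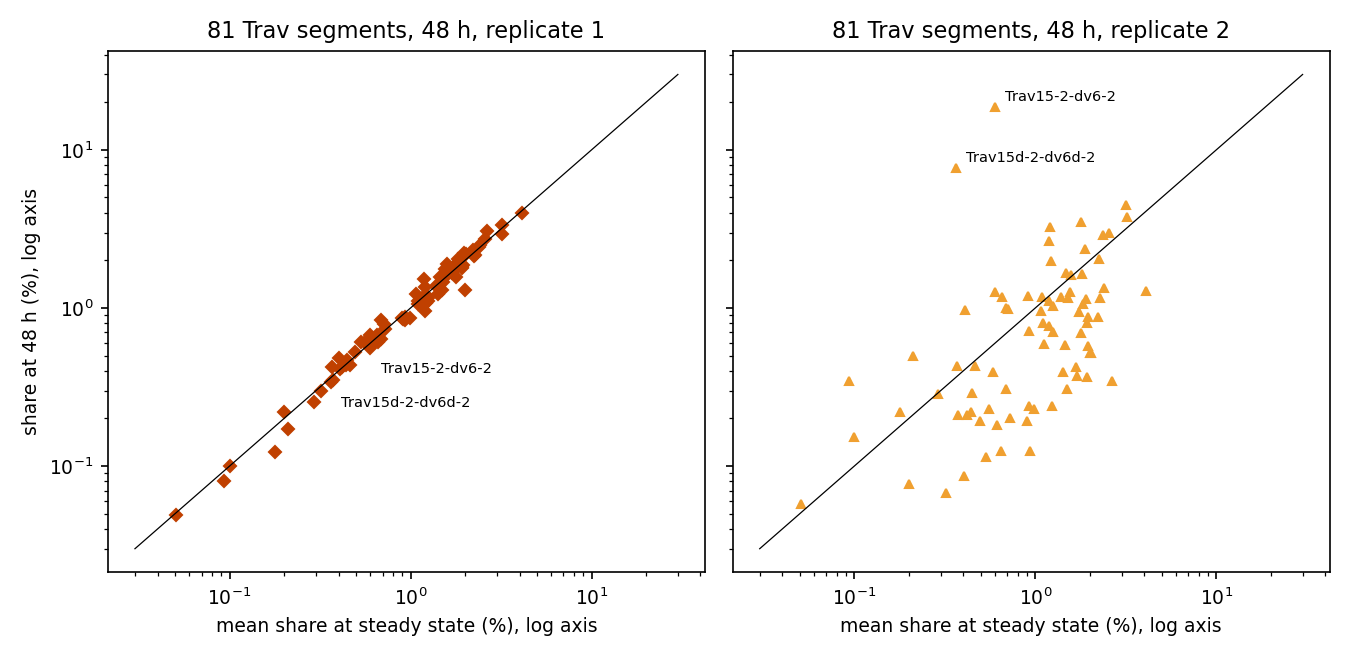
Share of each of the 81 Trav segments at 48 h (%, vertical axis, log) against its mean share in the 2 steady-state libraries (%, horizontal axis, log), for replicate 1 (left) and replicate 2 (right); the line marks equal shares. Replicate 1 follows the line, and replicate 2 scatters around it with Trav15-2-dv6-2 at 18.6% and Trav15d-2-dv6d-2 at 7.69%.

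The same Trav pattern was in the other 3 tables of the series that sum to near 2, all of them replicate 2 of a labelled cohort. Trav15-2-dv6-2 held 9.81% to 18.6% in the 4 such tables and 0.557% to 1.10% in the other 8. Over the 81 segments, 7 were above and 21 below all 8 others in all 4, and 53 overlapped. Replicate 2 at 48 h of WT mice was 19.6% away from the KO table of the same sampling and number, nearer than to any WT library at steady state or 48 h. How these tables came to sum to near 2, and its part in the Trav values, was not tested.

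Among the abundant segments, Trav7-4 held 3.02% and 3.35% at steady state and 2.93% and 4.45% at 48 h, and Trav14-1 held 3.32% and 3.09% against 3.34% and 3.79%. Trav7-3 held 3.92% and 4.30% against 3.99% and 1.27%. Summed by family, Trav15 held 2.33%, 2.16%, 2.25% and 26.7%, Trav10 1.82%, 1.96%, 2.00% and 4.25%, and Trav14 9.71%, 9.72%, 9.42% and 11.3%, in the order steady state 1 and 2, 48 h 1 and 2. The higher Trav15 sum of replicate 2 at 48 h was not shared by the whole family. Trav15-1-dv6-1 (0.622%, 0.492%, 0.612% and 0.230%) and Trav15d-1-dv6d-1 (0.787%, 0.661%, 0.741% and 0.201%) were lower there. The families with the largest negative differences were Trav6 (13.6%, 14.04%, 14.8% and 4.69%), Trav7 (16.7%, 17.0%, 16.5% and 11.3%) and Trav12 (8.28%, 7.86%, 8.33% and 4.48%). In each of these families replicate 2 at 48 h lay much farther from the steady-state libraries than replicate 1 did.

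By zone, the distal segments held 28.5% and 30.4% of the repertoire at steady state and 27.1% and 19.8% at 48 h, lower without overlap. The central zone held 34.0% and 36.3% against 36.3% and 31.04%, and the proximal zone 37.5% and 33.3% against 36.6% and 49.2%, both with overlap. Within replicate 1 the distal zone was lower by 1.35 points and within replicate 2 by 10.7. The mean Trav rank was 43.1 and 41.5 at steady state, 43.3 in replicate 1 and 47.9 in replicate 2 at 48 h, and 53.5 and 55.8 at 24 h. Leaving out replicate 2 at 48 h turned the difference of the central zone from -1.51 to 1.10 points and that of the 5' window from 1.32 to -0.36, and left 1.21 of the 7.51 points of the proximal zone.

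No single combination passed the test. Of 3483 pairs 0 rose and 0 fell (0.0% each), with 217 at an unadjusted p under 0.05 and a lowest adjusted p of 0.282 in limma. Without replicate 1 at 48 h, which leaves replicate 2 alone, 485 pairs passed, 61 higher and 424 lower. Without overlap, 424 pairs were higher (12.2%) and 751 lower (21.6%). In replicate 2 at 48 h 45.5% of pairs were at 0, and its smallest share above 0 was 0.0095%. For a pair at 0 there, being lower without overlap is decided by replicate 1 at 48 h alone. How many of the lower pairs were at 0 there was not counted. Of the 189 pairs of a distal Trav with one of Traj11 to Traj2, 165 were lower without overlap and 1 higher, and 119 had an unadjusted p under 0.05. Their median log2 fold change was -1.05, against -0.22 over all pairs. It was -0.49 within replicate 1, where the median of all pairs was 0.01.

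The largest pairs of the steady-state pool joined the ends nearest each other. Trav21-dv12 with Traj58 held 0.269% and 0.253% at steady state and 0.235% and 0.115% at 48 h. With Traj57 it held 0.228% and 0.199% against 0.174% and 0.153%, and with Traj56 0.188% and 0.186% against 0.178% and 0.0478%. All 3 were lower at 48 h without overlap and did not pass the test. The 3 highest means at 48 h, Trav15-2-dv6-2 with Traj48, Traj49 and Traj37, came from replicate 2 (1.18%, 1.02% and 0.966%), as replicate 1 had 0.0270%, 0.0287% and 0.0263% of them.

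Invariant NKT, MAIT and gamma-delta cells carry CD3 on their surface, and a CD3e(-) gate is meant to remove them. The marker pair of invariant NKT cells, Trav11-Traj18, held 0.0350% and 0.0476% at steady state and 0.0449% and 0.0287% at 48 h, with overlap. That of MAIT cells, Trav1-Traj33, held 0.0412% and 0.0518% against 0.0377% and 0.0192%. Neither passed the test (adjusted p = 0.953 and 0.790, limma). The 10 segments with dv in their name, which can also be used by Tcrd in gamma-delta cells, summed to 12.3% and 11.4% at steady state and to 12.2% and 33.7% at 48 h. Without the Trav15 family the other 6 summed to 9.97%, 9.20%, 9.91% and 6.97%. Since the tables hold Tcra transcripts alone, Cd4, Cd8a and other markers of the DP stage have no value here.

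The same comparison was measured in mice homozygous for a knockout (KO) of DPASE, a regulatory element of the Rag locus, with 2 libraries per sampling, the same TcrdCreER and reporter labels, and the same tamoxifen and gates. Traj2 changed by -1.13 on the log2 scale in WT and by -1.04 in KO mice (difference 0.09, SE 0.25, adjusted p = 0.884, limma), and Traj4 by -0.98 in both. The difference of the changes passed the test for 0 of 43 Traj segments (0.0%), with 7 at an unadjusted p under 0.05 and a lowest adjusted p of 0.111. In 6 of the 7 the KO change was the lower. The 2 largest differences, named after their values were seen, were at Traj9 (WT -0.40, KO -1.24, SE of the difference 0.21) and Traj12 (WT -0.17, KO -0.99, SE 0.23). Traj22 was higher at 48 h without overlap in WT and lower without overlap in KO mice (log2 fold changes 0.24 and -0.34, adjusted p of the difference 0.154, limma).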

How the data were processed

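Tcra transcripts were amplified from sorted CD3e(-) DP thymocytes by template-switch RACE with a Trac primer, per the labels' protocols. The deposited values are fractions of the repertoire per Trav-Traj pair, per the file headers and the values. For the aligner, the build and the unit counted, nothing is given in the sources used here. Each of the 12 tables was divided by its total over the Trav segments present in the 4 compared tables. Percent shares were tested as log2(percent + 0.01) with limma 3.58.1 (R 4.3.3), 1 mean per group over 12 libraries, with Benjamini-Hochberg adjustment at 0.05; the scale understates changes of low shares. Trav2 and Trav4d-2 were each absent from 1 KO table, and they and their pairs were fitted on 11 libraries. Sums of 1 number per library were not tested. The fit was also run on simulated data with independent noise, of the same spread in every group for a given segment or pair. That setting lacks the unequal spread of these libraries, so it cannot show how the fit performs on them.

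The members, windows, zones and lists were chosen with earlier results of these data known. Traj segments were named when past the threshold without overlap, or from a fixed list (Traj58, Traj57, Traj56, Traj52, Traj49, Traj33, Traj18, Traj2); Trav segments, families and pairs by highest share or largest change, plus Trav1, Trav11, Trav21-dv12 and the marker pairs. Other named segments serve to describe a stretch or window. Trav11 held 0.498%, 0.571%, 0.609% and 0.115% (steady state 1 and 2, 48 h 1 and 2). Zones follow the order of the tables, which is that of GRCm38 coordinates except at Trav4d-2. Positions and sequences are those of the GENCODE M21 entry of the same name (43 of 43 Traj, 79 of 81 Trav), a C57BL/6J reference. As the labels give TcrdCreER as of 129 origin in the Tcra-Tcrd loci, the segments of these mice may differ from that reference, which was not tested. Alternatives covered the pseudocount, filter, libraries fitted, centring, variance trend, weights, denominator, replicate block and leaving out each library.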

Additional observations from a re-analysis of the deposited data

How the results depend on the processing

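The count of 4 Traj segments that fell was 3 to 5 under the planned changes of pseudocount, filter, scale, denominator, weights, variance trend and libraries fitted. Leaving out 1 library gave 0 to 5. On a scale centred on each library's mean log2 share, Traj6 missed the threshold (-0.68, adjusted p = 0.0560, limma). Whether the replicate numbers pair the libraries is not given by the labels. The 4 Trav segments not listed in all 4 tables were each listed in the same-numbered library of both groups. The libraries were treated as unpaired, as planned. Deviations of same-numbered libraries from their group means correlated at -0.49 over the 43 Traj, 0.12 over the 81 Trav and 0.05 over the 3483 pairs. With 2 libraries per group these correlations cannot decide whether the libraries are paired. A replicate block in the 12-library fit left 4 Traj, 0 Trav and 0 pairs called. In the 4 compared libraries alone, an alternative added after seeing the data, the block gave 0 Traj and crossed numbers gave 6. The count of 0 pairs was 8 with a pseudocount of 0.1, 2 with a variance trend, and 0 to 485 when 1 library was left out, the 485 being without replicate 1 at 48 h. The count of 0 Trav held under every alternative run. Without the Trav segments of suffix d, the difference (48 h minus steady state) was 3.83 points for the middle window and -3.52 for Traj11 to Traj2, against 6.23 and -6.09. With each Trav weighted equally, added after seeing the data, the middle window differed by 7.18 points. No direction of a called value reversed. Depth is unknown, and the 45.5% of pairs at 0 in replicate 2 at 48 h limit what its rare Trav segments show.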

Other observations

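Trav segments listed in only some of the 4 tables stayed outside the comparison. The replicate 2 tables list Trav5-1, at 2.10% of the deposited total at steady state and 0.708% at 48 h, and Trav13d-2, at 0.782% and 0.689%. The replicate 1 tables list Trav18 instead, at 0.0204% at steady state and at 48 h, and Trav7-6, at 0.0224% and 0.0231%. Each is thus known from 1 library per group.

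The effective number of pairs, the exponential of the Shannon entropy, was 2348 and 2288 at steady state and 2328 in replicate 1 at 48 h. Replicate 2 at 48 h had 1037.

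Steady-state libraries deviated from their group mean by a median of 0.083 (log2) over Trav segments and 0.054 over Traj segments. The 48 h libraries deviated by 0.467 and 0.10.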
